A study of Bos taurus with 32 samples.

Results

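Histone-modifying enzymes were followed through the first days of cattle development in pools of in vitro produced Bos taurus embryos. The set is 40 genes listed by symbol: 17 methyltransferase genes, counting the Polycomb partners EED and SUZ12 that carry no catalytic domain for methylation themselves, 14 demethylases, 5 acetylases and 4 deacetylases. All 40 symbols were found in the tables of all 4 stages, among 14225 genes listed in every table, and all 40 passed the filter of a mean of at least 1 in every comparison. Each library came from total RNA of 15 pooled embryos at 4-6 cells, at 9-16 cells, as morulae or as blastocysts, with amplification by the SMART-Seq v4 kit for low input. The 8 groups are these 4 stages of embryos cultured with FGF2, LIF and IGF1 together, called FLI below, and of control embryos, with 4 libraries per group and 32 in all. The labels give no breed, sire, dose or day of collection. They do not say whether pools of a group came from separate cultures, so p-values measure only the spread between these pools, which may be technical.

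Histone tails carry methyl and acetyl groups that help decide which genes are read. Methylation of H3K4 and acetylation of H3K27 mark active promoters and enhancers, methylation of H3K36 marks transcribed gene bodies, and methylation of H3K9 or H3K27 marks silenced chromatin. Writers add these groups, erasers remove them, and the oocyte supplies the early embryo with messages for both. In cattle the embryo's own genome is activated mainly around the stage sampled here as 9-16 cells, while stored maternal messages are lost, and the marks inherited from egg and sperm are rebuilt over the same divisions.

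Levels across stages are CPM, reads scaled to a common library total, after a joint TMM normalisation of the reads, and 30 of the 32 libraries were deep enough to use. Values of a group are listed in order of replicate number. Depth was 12443785 to 89185192 reads at the 4-6 cell stage and 7013325 to 50644350 at the 9-16 cell stage. It was 11641958 to 114138150 reads in 7 morula libraries and 62631346 to 169438740 in 7 blastocyst libraries. A control morula library (replicate 4, 83409 reads) and a control blastocyst library (replicate 6, 2995 reads) were left out as too shallow, so these 2 groups have 3 libraries. Stage markers moved with the stage labels. The summed CPM of 10 oocyte and maternal genes had medians of 9943, 7845, 133 and 58.7 in control libraries from the 4-6 cell stage to the blastocyst. The sum of the 5 trophectoderm genes present in the tables had medians of 567, 402, 1096 and 29049. Of 12 cumulus cell markers 9 were in the tables, and their summed CPM ranged from 16.2 to 556 over all libraries. None of the 7 sperm markers was in all 4 tables. Of 10 blood, immune and endothelial markers 6 were present, with sums of 30.6 to 239 CPM.

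A measure of transcript length moved with the stage and with single libraries, and it touches every result on these genes. The members are long, with a median of 4717 exon bases and a range of 1556 to 17858, against a median of 2428 over the 14225 genes. The median log2(CPM + 1) of the longest 25% of genes (3677 bases or more) minus that of the shortest 25% (1583 bases or fewer) is called the length index here. Its group medians in control embryos were 1.61, 1.28, -1.01 and 0.263 from the 4-6 cell stage to the blastocyst, and in FLI embryos 1.72, 1.34, 0.279 and -0.687. A library with a lower index has fewer reads from long genes. Replicate 6 stood apart from its group at the 4-6 cell stage, with an index of 0.0385 in FLI and -0.0677 in control embryos, as did replicate 11 among the 9-16 cell controls with 0.240. Each stage change was therefore also fitted after a length trend was removed from every library and, an alternative chosen after the data were seen, with the index as a covariate. A change called in the reported fit and in both of these is described as held in all 3 fits. Whether the index accounts for any change that was lost was not tested. In pools, fewer cells of a type and less RNA per cell cannot be told apart, and stage cannot be told apart from the collection and sequencing of its libraries.

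**Figure D1:**
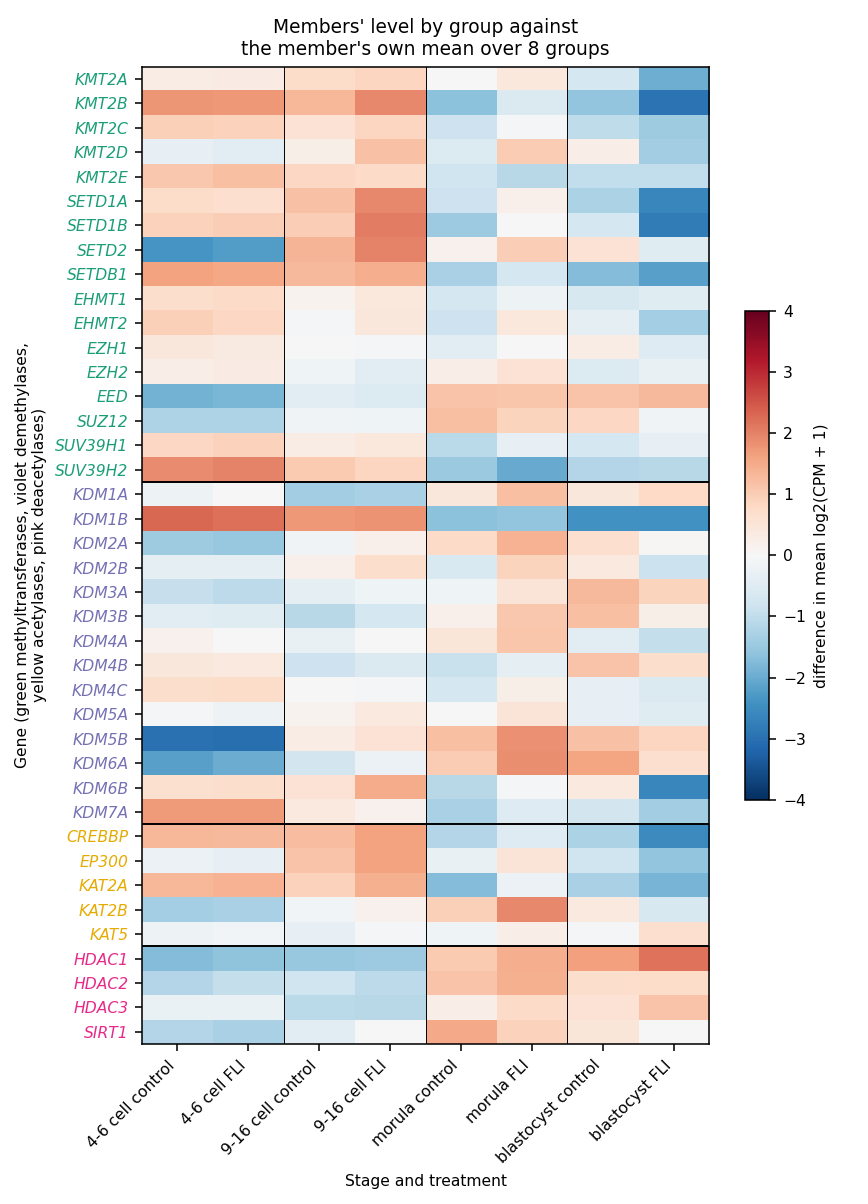
Mean log2(CPM + 1) of each of the 40 members in the 8 groups, shown as the difference from the member's own mean over the groups, with red above and blue below it and horizontal lines between the 4 classes. HDAC1 and HDAC2 are blue at the first 2 stages and red at the last 2, KDM1B, KDM7A and SUV39H2 run the other way, and SETD2, KDM5B and KDM6A are lowest at the 4-6 cell stage.

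In the heat map of the 40 members, which is not adjusted for the length index, the 4 classes followed different courses. In control embryos 16 members had their highest mean at the 4-6 cell stage, 6 at the 9-16 cell stage, 9 in morulae and 9 in blastocysts. The summed level of the 4 deacetylases went from 172 ± 9.36 CPM at the 4-6 cell stage to 214 ± 41.2 at 9-16 cells, 917 ± 17.4 in morulae and 912 ± 79.8 in blastocysts (mean ± SD, n = 4, 4, 3 and 3). The 17 methyltransferase genes summed to 1991 ± 653, 1625 ± 354, 859 ± 284 and 787 ± 172 CPM over the same stages, and the 5 acetylases to 913 ± 437, 1093 ± 359, 367 ± 175 and 299 ± 76.3. These levels are sums of CPM within a class, not adjusted for the length index, and were not tested. From 9-16 cells to the control morula the methyltransferases had a median log2 change of -1.18 in the reported fit. It was -0.13 with the length trend removed and 0.41 with the index as a covariate. In the same order it was -1.43, -0.41 and 0.21 for acetylases, 0.08, 0.96 and 1.41 for demethylases and 1.95, 2.35 and 1.77 for deacetylases. The 14 demethylases summed to 803 ± 224, 719.6 ± 157, 957 ± 361 and 1002 ± 275 CPM, and the libraries of the 4 stages overlap in this sum, from 467 to 927 at the start and from 684 to 1167 in blastocysts. Per kilobase of exon, HDAC1 was highest over all deep libraries with 129 CPM per kilobase, followed by KDM1A with 82.2 and EP300 with 43.7. This scale does not adjust for the length index, so the order of genes of unlike length is approximate. The lowest were EZH1 with 1.42, KMT2A with 2.05 and KDM3B with 2.13 CPM per kilobase.

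Between the 4-6 and 9-16 cell stages 6 members rose in control embryos, SETD2, EED, SUZ12, KDM2A, KDM5B and KDM6A, and all 6 also rose in FLI embryos, which are separate libraries. SUV39H2, KDM1A, KDM1B, KDM4B, KDM7A and HDAC3 fell in controls, and SUV39H2, KDM1A, KDM7A and HDAC3 of these also fell in FLI embryos. Calls are limma with a Benjamini-Hochberg adjusted p under 0.05 over 13388 genes, and every one of these held in all 3 fits. The 6 higher members are 15% of 40, beside 13.7% of all genes called higher in the reported fit and 13.3% in all 3 fits, and the 6 lower ones stand beside 12.3% and 10.7%, so the share of members that changed was close to that of all genes. In FLI embryos 9 members rose, with EP300, KAT2B and SIRT1 added, beside 15.2% of all genes and 14.8% in all 3 fits, and 5 fell, with EZH2 in place of KDM1B and KDM4B, beside 16% and 14.7%. Without 9-16 cell control replicate 10, 3 members in place of 6 were lower in controls. With the length index as a covariate 11 were higher and 10 lower, and with both shallow libraries in the fit 2 and 0. Shares of all genes in these refits are not given here.

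The step from 9-16 cells to the morula changed more members. In controls 11 rose: EZH2, EED, SUZ12, KDM1A, KDM3B, KDM5B, KDM6A and all 4 deacetylases, HDAC1, HDAC2, HDAC3 and SIRT1. Of these, 10 held in all 3 fits, EZH2 being the exception, and EZH2 also turned its direction when libraries were scaled to their totals without TMM. The background was 39% of all genes higher in the reported fit and 29.7% in all 3 fits, against 27.5% and 25% of members. In the same step 15 members were lower in the reported fit (37.5%, beside 34.6% of all genes), and 4 of them in all 3 fits, SETDB1, SUV39H1, SUV39H2 and KDM1B (10%, beside 24.2% of all genes). The other 11, KMT2B, KMT2C, KMT2E, SETD1A, SETD1B, SETD2, EHMT1, KDM7A, CREBBP, EP300 and KAT2A, were not called in at least one of the length-adjusted fits, while the control index went from a median of 1.28 to -1.01. In FLI embryos, whose index went from 1.34 to 0.279, 14 members were higher in the reported fit and 13 in all 3 fits, beside 40.6% and 35% of all genes, and 12 and 5 were lower, beside 32.6% and 27.3%. Called in both arms in all 3 fits were 9 that rose (EED, SUZ12, KDM1A, KDM3B, KDM5B, KDM6A, HDAC1, HDAC2 and HDAC3) and 3 that fell (SETDB1, SUV39H2 and KDM1B). With library totals in place of TMM the median of all genes in controls moved from 0.13 to -0.56 on the log2 scale. The share of higher among called genes went from 53% to 37.3%. In that fit 5 members were higher and 20 lower, beside 3602 and 6059 of all genes. In FLI embryos the same scaling moved the median of all genes from 0.23 to -0.12. With both shallow libraries in the fit no member was higher in controls, and the share of all genes in that fit is not given here. With the index as a covariate 31 of 40 members had a positive change in controls, beside 53.5% of all genes. In the reported fit 16 had one, beside 52.4%.

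From morula to blastocyst the 2 arms had different counts. The direct test of a difference between the arms, given below, called no member and none of 13388 genes at this step. In controls KDM3A, KDM4B and HDAC1 rose and EZH2, KDM1B and SIRT1 fell, and all but HDAC1 held in all 3 fits. The background was 17.6% of genes higher (15.2% in all 3 fits) and 15.2% lower (12.9%), against 7.5% of members each way. In FLI embryos 2 members rose, SUV39H2 and HDAC1, and 26 fell, of which 20 held in all 3 fits, beside 18.8% (16.2%) of genes higher and 22% (17.2%) lower. The 20 were KMT2A, KMT2B, KMT2C, KMT2D, SETD1A, SETD1B, SETD2, SETDB1, EHMT2, EZH2, KDM1B, KDM2A, KDM2B, KDM4A, KDM6A, CREBBP, EP300, KAT2A, KAT2B and HDAC2. That is 50% of members in all 3 fits beside 17.2% of all genes, and the FLI index went from 0.279 to -0.687 over this step while the control index went from -1.01 to 0.263. Leaving out morula FLI replicate 2 or 4, or blastocyst FLI replicate 6 or 7, brought the count of 26 to 15, 14, 12 and 15 in turn. Without morula FLI replicate 7 or blastocyst FLI replicate 8, 4 members in place of 2 were higher. For these refits too the shares of all genes are not given here. Library totals in place of TMM gave 34.2% higher among called genes in place of 46.1%, and in controls 65% in place of 53.6%. With that scaling 3 control members were higher and 0 lower, beside 2615 and 1405 of all genes. Without morula control replicate 1, 1 member in place of 3 was higher in controls, and the share of all genes is not given here. EZH2 and KDM1B were the members that fell in both arms in all 3 fits. The 3 members with the smallest p in FLI embryos, picked after their values were seen, were KAT2B, KDM4A and EZH2. KAT2B, an acetylase of the SAGA and PCAF complexes, was at 90.4, 92.8, 60.6 and 19.4 CPM in FLI morulae and 16.1, 5.52, 5.21 and 11.4 in FLI blastocysts (log2 change -2.57 ± 0.47 SE, limma adjusted p = 8.61e-05). KDM4A, an H3K9 and H3K36 demethylase, was at 343, 320.2, 192 and 118 and 113, 27.4, 37.6 and 65.8 CPM (log2 change -2.06 ± 0.43 SE, limma adjusted p = 0.000363). Both have non-overlapping groups.

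**Figure D2:**
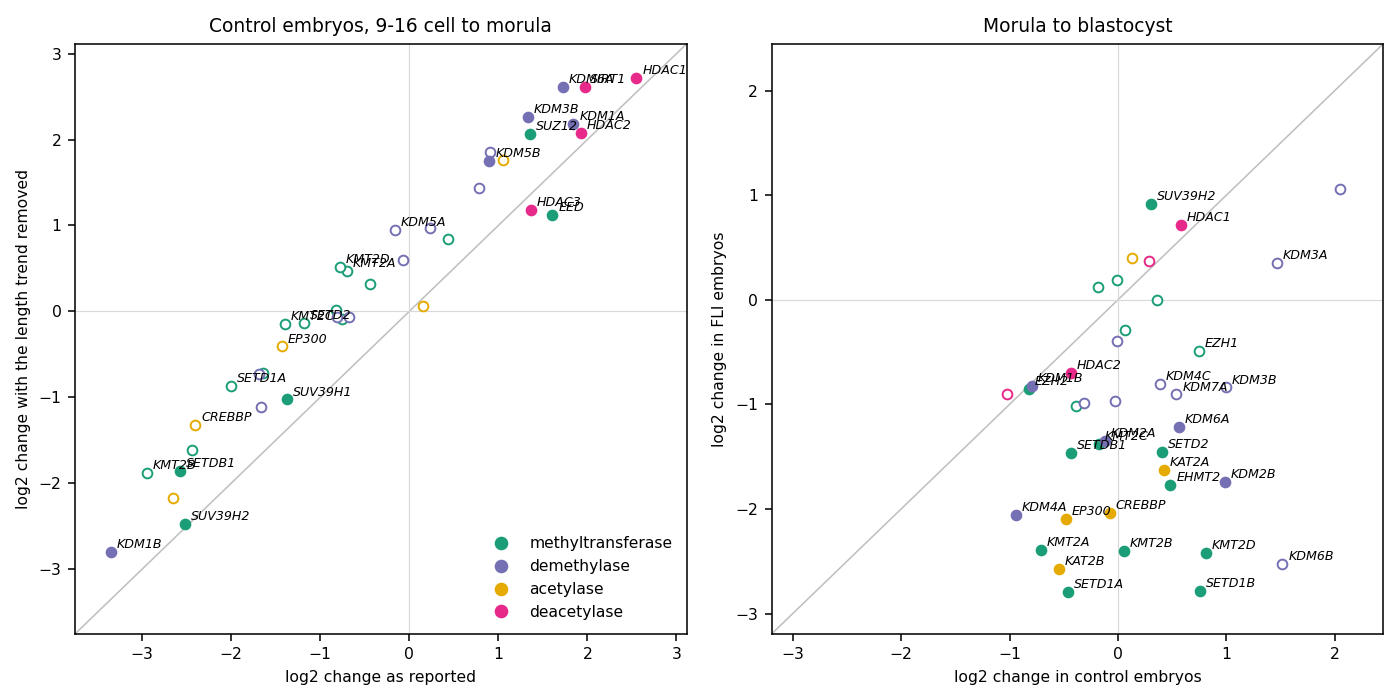
Log2 changes of the 40 members on log2(CPM + 1), coloured by class, with the diagonal as the line of equal values. Left, control embryos from 9-16 cells to the morula, as reported against the fit with the length trend removed, where most points lie above the diagonal and filled points are the 14 members called in all 3 fits. Right, morula to blastocyst in control against FLI embryos, where filled points are the 22 members called in all 3 fits in FLI embryos and most lie below the diagonal.

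Among the methyltransferases SETD2 showed the steepest rise. SETD2 writes trimethylation of H3K36 along transcribed genes and lies on chromosome 22, 52450147 to 52509045 of ARS-UCD1.2, plus strand. It was at 4.67, 7.23, 6.96 and 5.0 CPM in the 4 control libraries of the 4-6 cell stage. At 9-16 cells it was at 172, 50.1, 52.3 and 147 CPM (log2 change 3.73 ± 0.44 SE, limma adjusted p = 1.83e-07). The groups do not overlap. FLI libraries had 5.12, 7.4, 5.74 and 8.14 CPM at the first stage and 155, 101, 149 and 158 at the second (log2 change 4.22 ± 0.44 SE, limma adjusted p = 1.61e-08). Here too the lowest 9-16 cell library is above the highest 4-6 cell library. In control morulae SETD2 was at 27.6, 32.5 and 68 CPM and in control blastocysts at 29.5, 70.6 and 70.0, and neither later step was called in controls in all 3 fits.

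The subunits of Polycomb repressive complex 2, which methylates H3K27, followed different courses. EED, the subunit that binds the methylated tail, was at 14.2, 7.11, 6.87 and 8.03 CPM in 4-6 cell controls, 35.1, 45.1, 15.3 and 15.6 at 9-16 cells, 83.6, 83 and 68.1 in morulae and 83.7, 72 and 77.3 in blastocysts. It rose at the first step (log2 change 1.42 ± 0.30 SE, limma adjusted p = 0.000546) and again at the next (log2 change 1.61 ± 0.32 SE, limma adjusted p = 6.63e-05), and the morula libraries lie above all earlier ones. SUZ12, the scaffold of the complex, was at 23.4, 22.7, 19.7 and 20.9 CPM in 4-6 cell controls, 56.6, 59.6, 35.5 and 41.5 at 9-16 cells, 121, 123 and 122 in morulae and 93.9, 82.1 and 105 in blastocysts. It rose at the first step (log2 change 1.09 ± 0.26 SE, limma adjusted p = 0.00232) and at the second (log2 change 1.35 ± 0.28 SE, limma adjusted p = 0.000123). EZH2, the catalytic subunit, had another course. It was at 128, 133, 113 and 118 CPM at the 4-6 cell stage, 85.4, 110.5, 94.8 and 75.6 at 9-16 cells, 109, 128 and 132 in morulae and 64.9, 74.7 and 68.1 in blastocysts. EZH2 fell from morula to blastocyst in controls (log2 change -0.82 ± 0.21 SE, limma adjusted p = 0.00303) and in FLI embryos (log2 change -0.85 ± 0.18 SE, limma adjusted p = 0.000409), and its control groups at these 2 stages do not overlap. EZH1, the other catalytic subunit, had the lowest level per kilobase of the 40. It was at 5.16, 13.3, 10.7 and 9.27 CPM at the 4-6 cell stage and 4.04, 11.4 and 11.2 in control blastocysts, and no step in controls was called.

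Of the writers of H3K9 methylation, a mark of silent chromatin, SUV39H2 and SETDB1 fell from 9-16 cells to the morula in both arms in all 3 fits, and SUV39H1 in controls. SUV39H2 was at 105, 60.8, 58 and 71.5 CPM in 4-6 cell controls, 29.4, 42.8, 38.3 and 48.7 at 9-16 cells, 6.84, 5.46 and 5.86 in morulae and 8.78, 7.1 and 7.24 in blastocysts. It fell at the first step (log2 change -0.86 ± 0.27 SE, limma adjusted p = 0.0193) and at the second (log2 change -2.51 ± 0.29 SE, limma adjusted p = 2.01e-08), in both arms and in all 3 fits, and every morula library lies below every earlier one. SUV39H1 fell at the second step in controls (log2 change -1.38 ± 0.29 SE, limma adjusted p = 0.000154), from 29 ± 8.39 to 10.4 ± 2.75 CPM (mean ± SD, n = 4 and 3). SETDB1, which works with KRAB zinc finger repressors, was at 126, 82.1, 152 and 133 CPM in 9-16 cell controls and 17.4, 14.9 and 27.5 in morulae (log2 change -2.58 ± 0.46 SE, limma adjusted p = 1.82e-05). Exons of SETDB1 overlap CERS2 on the opposite strand, the strand setting of the counting is not given in the sources used here, and reads of the 2 genes may not be told apart. SETDB1 was the only member with exons that overlap another gene of the tables. EHMT1 and EHMT2 work as a pair that mono- and dimethylates H3K9. Control means of EHMT1 were 229, 153, 85.4 and 91.8 CPM over the 4 stages, and those of EHMT2 173, 75.4, 51.1 and 61.1. The second step of EHMT1 was called lower in controls in the reported fit and not in all 3 fits, and that of EHMT2 was not called in the reported fit (log2 change -0.76 ± 0.72 SE, limma adjusted p = 0.343) and was positive with the index as a covariate (1.83, limma adjusted p = 5.6e-06).

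KMT2C, which methylates H3K4 at enhancers, was at 214, 522, 484 and 562 CPM in 4-6 cell controls and 98.7, 99.2 and 178 in control morulae. KMT2B, which serves CpG-rich promoters and is needed in the mouse oocyte, was at 191, 63, 218 and 195 CPM in 9-16 cell controls and 11.7, 11.4 and 46.9 in morulae. The reported fit gave KMT2B a change of -2.95 ± 0.85 SE on the log2 scale (limma adjusted p = 0.00304). The change was -1.88 with the length trend removed (limma adjusted p = 0.0061) and -0.16 with the index as a covariate (limma adjusted p = 0.807). Its lowest control values at the 4-6 and 9-16 cell stages, 41 and 63 CPM, are in the 2 control libraries with a low index, replicates 6 and 11. The same libraries hold the lowest values for KMT2D, SETD1A, SETD1B, KDM6B and CREBBP. Control means over the 4 stages were 25.8, 31.1, 19.2 and 12.6 CPM for KMT2A and 56.9, 76, 58.2 and 69.8 for KMT2D. SETD1A, a SET1 family writer, had control means of 64.5, 85, 23.1 and 13.4 CPM. KMT2E, for which no methyltransferase activity is established in mammals, had 150.1, 125, 38.9 and 34.4.

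**Figure D3:**
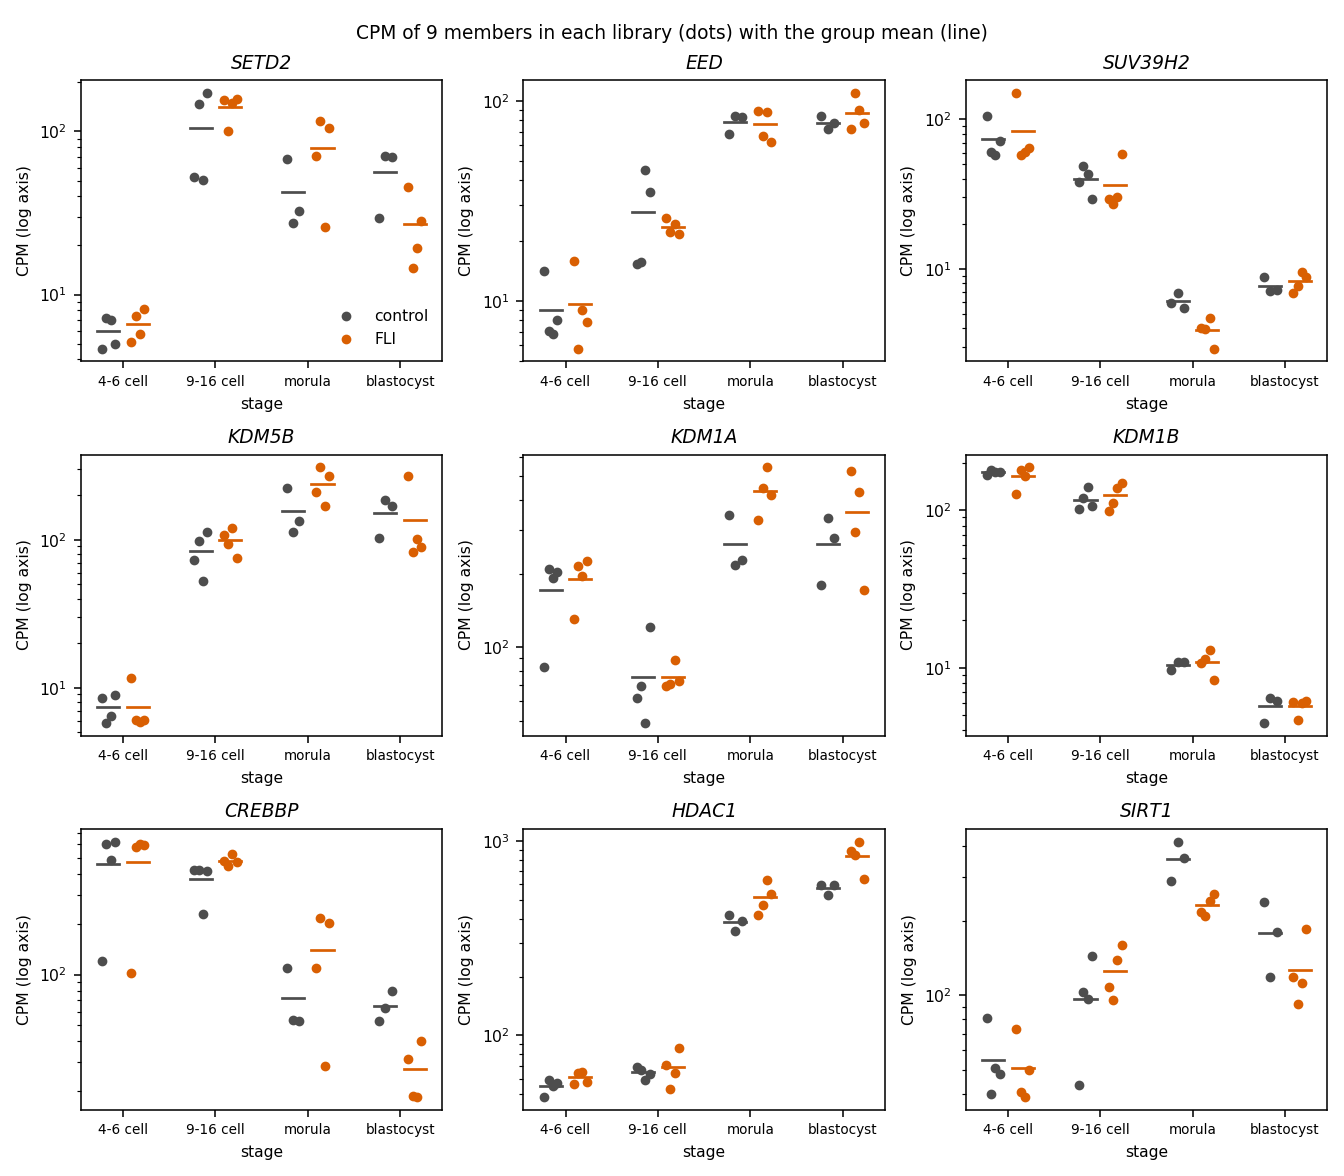
CPM on a log axis in each deep library for 9 members, grey for control and orange for FLI, with a line at the group mean. SETD2 and KDM5B step up between the first 2 stages, KDM1B and SUV39H2 step down and HDAC1 and EED step up by the morula, and single low dots of CREBBP and KDM1A at the 4-6 cell stage are the libraries numbered 6.

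Of the demethylases KDM5B rose most. KDM5B removes methyl groups from H3K4 and lies on chromosome 16, 79949862 to 80022792, plus strand. It was at 8.52, 5.8, 6.44 and 8.95 CPM in 4-6 cell controls and 112, 52.3, 72.9 and 97.4 at 9-16 cells (log2 change 3.29 ± 0.33 SE, limma adjusted p = 8.26e-09), and at 113, 134 and 225 in morulae (log2 change 0.90 ± 0.36 SE, limma adjusted p = 0.0255). In FLI embryos it was at 11.6, 6.01, 5.9 and 6.1 CPM at 4-6 cells and 108, 93.2, 119 and 75.7 at 9-16 cells, and in neither arm do the groups overlap. KDM6A, an H3K27 demethylase on chromosome X, 98634552 to 98814092, minus strand, went from 0.8, 2.12, 1.98 and 2.89 to 12.2, 5.79, 6.27 and 4.47 CPM (log2 change 1.45 ± 0.39 SE, limma adjusted p = 0.00677) and to 15.8, 24.7 and 37.6 in morulae (log2 change 1.72 ± 0.42 SE, limma adjusted p = 0.000753). KDM2A, which removes dimethylation from H3K36 at CpG islands, rose at the first step from 27.5 ± 10.9 to 69.2 ± 35.8 CPM (log2 change 1.28 ± 0.44 SE, limma adjusted p = 0.032). KDM3B, an H3K9 demethylase, was at 4.92, 3.57, 6.22 and 3.49 CPM at 9-16 cells and rose to 5.98, 11.4 and 28.6 in control morulae (log2 change 1.33 ± 0.46 SE, limma adjusted p = 0.0112).

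KDM1A and KDM1B, 2 flavin-dependent enzymes that remove mono- and dimethylation of H3K4, parted at the morula. KDM1B, needed for maternal imprints in the mouse oocyte and placed on chromosome 23, 39389854 to 39432004, minus strand, was at 168, 179.7, 174 and 174 CPM in 4-6 cell controls, 107, 139.6, 101 and 120.0 at 9-16 cells, 10.8, 10.8 and 9.73 in morulae and 4.47, 6.46 and 6.11 in blastocysts. In controls no library of a stage overlaps with the stage before it. Its log2 changes were -0.58 ± 0.18, -3.35 ± 0.20 and -0.79 ± 0.21 SE (limma adjusted p = 0.0188, 3.91e-14 and 0.00472), each held in all 3 fits. FLI libraries had 99.1, 111, 138 and 149 CPM at 9-16 cells and 11.4, 8.41, 10.8 and 13 in morulae. KDM1A was at 83.2, 209, 192 and 203 CPM in 4-6 cell controls, 121, 49.1, 61.9 and 69.2 at 9-16 cells, 216, 227 and 349 in morulae and 179, 336 and 278 in blastocysts. It fell at the first step (log2 change -1.17 ± 0.33 SE, limma adjusted p = 0.00938) and rose at the second (log2 change 1.84 ± 0.36 SE, limma adjusted p = 5.43e-05), in both arms, and its 9-16 cell libraries lie below every morula library.

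KDM4B, KDM3A and KDM7A moved at other steps. KDM4B, which acts on H3K9 and H3K36, was at 13.1, 35.8, 50.2 and 50.8 CPM at the 4-6 cell stage, 9.74, 8.56, 23.8 and 14 at 9-16 cells, 9.94, 9.24 and 20.2 in morulae and 33.1, 73 and 65.4 in blastocysts of the control arm. It fell at the first step (log2 change -1.29 ± 0.48 SE, limma adjusted p = 0.0461) and rose at the last (log2 change 2.05 ± 0.55 SE, limma adjusted p = 0.00519), and its morula and blastocyst libraries do not overlap. KDM3A, an H3K9 demethylase, rose at the last step from 21, 25.4 and 49.9 to 64.9, 87.1 and 106 CPM (log2 change 1.47 ± 0.42 SE, limma adjusted p = 0.00769). KDM7A, an eraser of H3K9 and H3K27 methylation, was at 9.3, 30.4, 23.6 and 30.6 CPM at the 4-6 cell stage, 11.1, 4.68, 8.23 and 9.39 at 9-16 cells and 1.61, 1.63 and 2.32 in morulae, and fell at the first step (log2 change -1.31 ± 0.35 SE, limma adjusted p = 0.00608). KDM2B, KDM4A, KDM4C and KDM5A had no step called in controls. Control means of KDM4A over the 4 stages were 122, 84.5, 155 and 76.9 CPM, and those of KDM5A 112, 128, 115 and 91.7.

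CREBBP and EP300, a pair of related acetylases that act on H3K27 at enhancers, had high early levels. CREBBP was at 120.5, 608, 484 and 625 CPM in 4-6 cell controls, 418, 231, 422 and 421 at 9-16 cells, 53.2, 52.6 and 110.1 in morulae and 52.6, 62.9 and 79.8 in blastocysts. EP300 was at 62.4, 300.1, 227 and 291 CPM at 4-6 cells, 726, 253, 466 and 655 at 9-16 cells, 138, 134 and 315 in morulae and 90.2, 128 and 186 in blastocysts. CREBBP libraries do not overlap between 9-16 cells and morula (log2 change -2.40 ± 0.61 SE, limma adjusted p = 0.00106). That change was -1.32 with the length trend removed (limma adjusted p = 0.0015) and -0.36 with the index as a covariate (limma adjusted p = 0.387). EP300 rose at the first step in FLI embryos (log2 change 1.92 ± 0.57 SE, limma adjusted p = 0.0115), and in controls its value was 1.37 ± 0.57 SE with limma adjusted p = 0.0816. KAT2A, the acetylase of the SAGA complex, was at 153, 39.6, 201 and 169 CPM in 9-16 cell controls and 7.49, 16.9 and 45.6 in morulae (log2 change -2.65 ± 0.65 SE, limma adjusted p = 0.000699, and 0.342 with the index as a covariate). KAT5, of the NuA4 complex, had control means of 44.6, 41.3, 45.6 and 50.4 CPM, and no step was called in either arm.

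In the reported fit the deacetylases rose together at the morula. HDAC1, on chromosome 2, 121225584 to 121257548, minus strand, was at 48.2, 59, 55 and 57.1 CPM in 4-6 cell controls, 63.5, 58.7, 69 and 66.6 at 9-16 cells, 344, 389 and 417 in morulae and 595, 532 and 596 in blastocysts. Every morula library lies above every earlier one (log2 change 2.55 ± 0.19 SE, limma adjusted p = 5.73e-12), a 5.86-fold change on the scale of CPM + 1. FLI libraries had 70.9, 53.2, 64.3 and 86.6 CPM at 9-16 cells and 469.5, 533, 418 and 635 in morulae. HDAC2, which shares complexes with HDAC1, went from 33, 33.1, 27.2 and 32.1 to 98.1, 134 and 138 CPM at that step (log2 change 1.93 ± 0.19 SE, limma adjusted p = 9.09e-10). HDAC3, the enzyme of the NCOR complexes, was at 30.7, 42.5, 47.6 and 32.6 CPM at the 4-6 cell stage, 25.2, 16.3, 26.3 and 17.4 at 9-16 cells and 47.6, 54.9 and 64.7 in control morulae, with a fall (log2 change -0.83 ± 0.25 SE, limma adjusted p = 0.0133) and then a rise (log2 change 1.37 ± 0.27 SE, limma adjusted p = 5.37e-05). SIRT1, the NAD-dependent deacetylase, was at 81.1, 40.1, 51 and 47.9 CPM in 4-6 cell controls, 144, 96.3, 43.6 and 103 at 9-16 cells, 417, 359.6 and 288 in morulae and 237, 119 and 181 in blastocysts. It rose to the control morula (log2 change 1.97 ± 0.33 SE, limma adjusted p = 7.57e-06) and fell from there to the blastocyst (log2 change -1.03 ± 0.35 SE, limma adjusted p = 0.0272). In FLI embryos SIRT1 was at 108, 95.8, 138 and 159 CPM at 9-16 cells and 208, 256, 217 and 240 in morulae. That rise was called in the reported fit and not in all 3 fits. Exons of the 4 deacetylases span 1926 to 3956 bases, shorter than the members' median of 4717, though SIRT1 with 3956 is among the longest 25% of genes. With the length trend removed the second-step changes of HDAC1, HDAC2, HDAC3 and SIRT1 in controls were 2.71, 2.08, 1.18 and 2.61.

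The balance between related enzymes was followed through the log2 ratio of 15 pairs within each library. Stage labels were permuted within each arm over all arrangements, and the two-sided p-values were adjusted over 45 tests (15 pairs at 3 steps). Of 15 pairs, 8 changed from 4-6 to 9-16 cells, 12 from 9-16 cells to morula and 4 from morula to blastocyst, where the smallest p the arrangements can give is 0.000408, 0.000408 and 0.00143. The share of other gene pairs that changed was not computed. These counts therefore cannot show whether related enzymes shifted more than other pairs of genes. KDM1A over KDM1B ranged from -1.49 to 0.18 at 9-16 cells and from 4.20 to 5.48 in morulae, so the ratio in each of the 7 morula libraries was above that in every 9-16 cell library (change 5.55, exact permutation p = 0.000408, adjusted p = 0.0023). KDM5A over KDM5B, both H3K4 demethylases, ran from 2.16 to 4.37 at 4-6 cells and from 0.18 to 1.36 at 9-16 cells (change -3.04, exact permutation p = 0.000408, adjusted p = 0.0023). CREBBP over EP300 was above 0 in every 4-6 cell library, 0.94 to 1.18, and below 0 in every 9-16 cell library, -0.79 to -0.13 (change -1.53, exact permutation p = 0.000408, adjusted p = 0.0023). The 2 acetylase genes have 8515 and 7236 exon bases, and with the ratio adjusted for the length index the change was -1.54.

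**Figure D4:**
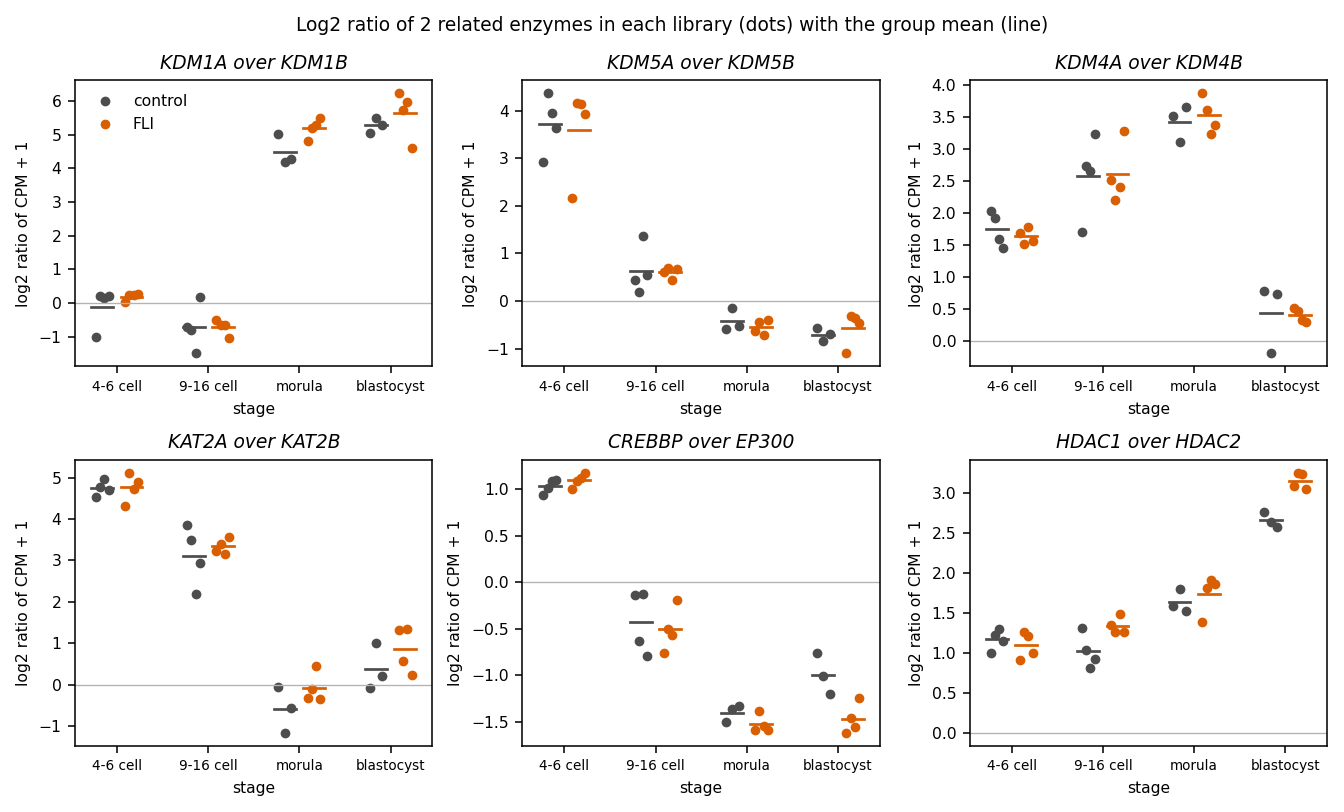
Log2 ratio of (CPM + 1) of 6 pairs of related enzymes in each deep library, grey for control and orange for FLI, with a line at the group mean and a grey line at equal levels. KDM1A over KDM1B lies between -1.49 and 0.26 before the morula and between 4.20 and 6.23 from the morula on, KDM5A over KDM5B and CREBBP over EP300 drop after the 4-6 cell stage, and KDM4A over KDM4B drops at the blastocyst.

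The plot of ratios shows further pairs, and control libraries taken alone gave no call. The smallest p of that smaller design can pass the adjustment only if many pairs reach it at once. KAT2A over KAT2B, the 2 alternative SAGA acetylases, changed by -1.53, exact permutation p = 0.000408, adjusted p = 0.0023 at the first step and by -3.56, exact permutation p = 0.000408, adjusted p = 0.0023 at the second, from a range of 4.32 to 5.12 at 4-6 cells to -1.16 to 0.45 in morulae. KMT2C over KMT2D changed by -1.32, exact permutation p = 0.00163, adjusted p = 0.00483 at the first step. KDM6A over KDM6B had a value of 1.25, exact permutation p = 0.0355, adjusted p = 0.0618 at that step, which missed the threshold. With the index adjusted for it was 1.14, exact permutation p = 0.000816, adjusted p = 0.00245, which passed. At the second step KDM6A over KDM6B changed by 3.54, exact permutation p = 0.000816, adjusted p = 0.00334. KMT2A over KMT2B changed by 2.16, exact permutation p = 0.000816, adjusted p = 0.00334 and SUV39H1 over SUV39H2 by 1.64, exact permutation p = 0.000816, adjusted p = 0.00334. With the index adjusted for, these 3 changes were 1.98, 1.22 and 2.68. At the last step KDM4A over KDM4B changed by -3.06, exact permutation p = 0.00143, adjusted p = 0.00459, from 3.11 to 3.87 to -0.20 to 0.77. HDAC1 over HDAC2 changed by 1.22, exact permutation p = 0.00143, adjusted p = 0.00459, KAT2A over KAT2B by 0.96, exact permutation p = 0.00571, adjusted p = 0.0117 and KDM3A over KDM3B by 0.83, exact permutation p = 0.00857, adjusted p = 0.0168. EZH1 over EZH2 at the last step had a value of 0.96, exact permutation p = 0.05, adjusted p = 0.0804, which missed the threshold. With the index adjusted for it was 0.98, exact permutation p = 0.00143, adjusted p = 0.00321, which passed.

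Other writers, erasers and complex partners were read from 4 lists with 102 genes, of which 96 were tested. In controls 12 rose and 12 fell between 4-6 and 9-16 cells (11 and 11 in all 3 fits), 24 rose and 36 fell to the morula (17 and 21), and 6 rose and 7 fell to the blastocyst (5 and 7), beside the shares of all genes given above. At the first step MTA2, a subunit of the NuRD deacetylase complex, went from 1.09 ± 0.34 to 39.4 ± 25.3 CPM (log2 change 3.89 ± 0.49 SE, limma adjusted p = 5.49e-07). JMJD6, a Jumonji-family hydroxylase, went from 12.3 ± 2.08 to 112 ± 10.3 CPM (log2 change 3.10 ± 0.25 SE, limma adjusted p = 1.29e-10). HDAC5 went from 4.87 ± 2.31 to 29.9 ± 5.78 CPM (log2 change 2.48 ± 0.39 SE, limma adjusted p = 1.72e-05) and SAP18 of the SIN3 complex from 124 ± 115 to 644 ± 471 CPM (log2 change 2.48 ± 0.52 SE, limma adjusted p = 0.000646). At the second step HDAC8 went from 8.19 ± 0.919 to 171 ± 55.6 CPM (log2 change 4.19 ± 0.25 SE, limma adjusted p = 4.64e-14), while HDAC11 went from 53.6 ± 23.3 to 0.766 ± 0.547 CPM (log2 change -4.90 ± 0.31 SE, limma adjusted p = 2.16e-13). HDAC7 went from 252 ± 99.6 to 17.9 ± 11.6 CPM (log2 change -3.81 ± 0.54 SE, limma adjusted p = 5.84e-07) and the H4K20 methyltransferase KMT5C from 72.6 ± 23.8 to 2.08 ± 1.35 CPM (log2 change -4.60 ± 0.43 SE, limma adjusted p = 4.01e-10). At the last step PHF19, a Polycomb accessory protein, went from 3.06 ± 3.21 to 16.4 ± 9.41 CPM (log2 change 2.19 ± 0.64 SE, limma adjusted p = 0.00945). NCOA1 went from 42.2 ± 11.8 to 171 ± 46 CPM (log2 change 1.99 ± 0.48 SE, limma adjusted p = 0.00214). SIRT4 went from 30.5 ± 10.5 to 9.05 ± 2.47 CPM (log2 change -1.62 ± 0.30 SE, limma adjusted p = 0.000117) and CLOCK from 8.24 ± 1.68 to 2.04 ± 0.254 CPM (log2 change -1.59 ± 0.27 SE, limma adjusted p = 4.81e-05). All 12 of these changes held in all 3 fits.

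FLI was compared with control at each stage on the deposited signal, on log2(signal + 1), with limma. None of the 40 members was called at any stage, and none of the 13385, 14139, 13254 and 13029 genes tested at the 4 stages was called (0%), while 12, 293, 4203 and 2049 genes had an unadjusted p under 0.05. Of the members 0, 0, 6 and 14 had an unadjusted p under 0.05. The median log2 difference of the members, FLI minus control, was -0.03, 0.23, 0.56 and -0.47 in stage order, beside -0.01, 0.01, 0.08 and 0.04 for all genes. The length index differed between the arms at the last 2 stages, with medians of 0.279 in FLI and -1.01 in control morulae, and -0.687 in FLI and 0.263 in control blastocysts. With the length trend removed the members' median was 0.22 in morulae and -0.24 in blastocysts. With the index as a covariate it was -0.28 in morulae, where the sign turned, and -0.20 in blastocysts. edgeR's quasi-likelihood test called 0 members at every stage, beside 0%, 0%, 6.44% and 0% of all genes. DESeq2 called 0 members and 0% of genes at the first 2 stages, and 1 and 6 members at the last 2.

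In the first 2 stages the arms lay close together. At the 4-6 cell stage the 3 members with the smallest p were HDAC2, HDAC1 and SIRT1. HDAC2 signal was 31.7, 32.1, 33.9 and 33.5 in FLI and 26.4, 30.7, 26.4 and 30.5 in control libraries, the one member whose groups do not overlap, beside 0.269% of all genes higher and 0.0747% lower without overlap. HDAC1 signal was 60.4, 78.5, 79.9 and 68 against 53.7, 73.4, 66.7 and 69.5, and SIRT1 signal 78.4, 49.5, 47.8 and 59.2 against 90.4, 49.9, 62 and 58.3. Their log2 differences were 0.20 ± 0.16, 0.12 ± 0.19 and -0.14 ± 0.26 SE, all with limma adjusted p = 1. At 9-16 cells the 3 were KMT2D, SETD1B and SETD1A, all with lower control values in replicate 11, which has the low index. SETD1B signal was 236, 210.1, 285 and 198 in FLI and 163, 24.3, 198 and 188 in control libraries (log2 difference 1.05 ± 0.56 SE, limma adjusted p = 0.91). KMT2D signal was 160.2, 153, 170.3 and 110.2 against 113, 24.4, 104 and 127, and SETD1A signal 163, 138, 170.0 and 126 against 137, 33.7, 104 and 137, with differences of 0.90 ± 0.45 and 0.71 ± 0.40 SE. SETD1B and CREBBP were higher in FLI without overlap, beside 1.19% of all genes higher and 0.615% lower. The authors' deposited table has an FDR under 0.05 for no member at these 2 stages, and for 0% and 0.0723% of all genes.

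In morulae the sign of most members' difference turned with the treatment of gene length. In the reported fit 34 of the 40 had a positive log2 difference, beside 54.3% of all genes, with the length trend removed 31 (47.4%), and with the index as a covariate 12 (49%). The 3 members with the smallest p were KDM7A, SIRT1 and KAT2A. KDM7A signal was 4.28, 3.73, 3.03 and 2.36 in FLI and 1.46, 1.49 and 2.1 in control libraries (log2 difference 0.69 ± 0.25 SE, limma adjusted p = 0.108). SIRT1 signal was 164, 206, 194 and 221 against 377, 329 and 261 (log2 difference -0.70 ± 0.26 SE, limma adjusted p = 0.112), and KAT2A signal 66.4, 59, 43.4 and 24.8 against 6.76, 15.4 and 41.2 (log2 difference 1.4 ± 0.54 SE, limma adjusted p = 0.12). KDM7A and SIRT1 do not overlap between arms, and KAT2A does. With the index as a covariate the differences of KDM7A, SIRT1 and KAT2A were 0.34, -0.44 and 0.19, and with the trend removed 0.34, -1.08 and 1.08. With the shallow library included the differences of KDM7A and SIRT1 were -0.18 and 0.15. In all, 1 member was higher without overlap (KDM7A) and 3 were lower (KMT2E, SUV39H2 and SIRT1), beside 8.73% and 12.5% of all genes. DESeq2 called 0 members higher and 1 lower, SIRT1, beside 3.72% and 15.5% of genes. The authors' table of this stage also lists shallow control replicate 4. Whether their test used it is not given in the sources used here. The authors' deposited table, with the sign control minus FLI, has an FDR under 0.05 for KMT2D (-2.23, FDR 0.0308), SETD1B (-2.48, FDR 0.0385) and KDM2B (-1.70, FDR 0.049), all higher with FLI, and for no member lower with FLI, beside 3.32% and 7.31% of its genes. Without control replicate 7, limma called 7 members higher, EHMT2, KDM1A, KDM3A, KDM4C, KDM5B, KDM7A and KAT2A, and SIRT1 lower, beside 13.9% and 20.9% of genes. That library had the highest index of the 3 controls, 0.0342, and it held the highest control values of KMT2D, SETD1B and KAT2A.

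In blastocysts KDM6B and 4 writers of H3K4 methylation, KMT2B, KMT2D, SETD1A and SETD1B, had lower values in every FLI library than in any control, although limma called none of them. KMT2A and KMT2C overlapped between the arms, and KMT2E signal was 34.5 ± 9.99 in FLI and 33.6 ± 5.69 in control blastocysts (mean ± SD, n = 4 and 3). KDM6B, an H3K27 demethylase that responds quickly to signals in other tissues and lies on chromosome 19, 27535830 to 27545702, plus strand, had a signal of 2.15, 1.91, 2.04 and 13.4 in the 4 FLI libraries and of 18.3, 41.1 and 55 in the 3 controls. All FLI libraries are below all controls, and FLI replicate 8 is the one that comes close. The log2 difference was -3.0 ± 0.57 SE with limma adjusted p = 0.162, and it was -2.50 with the length trend removed and -2.86 with the index as a covariate. SETD1B signal was 5.97, 3.73, 3.49 and 13 against 14.9, 32.3 and 41.7 (log2 difference -2.07 ± 0.46 SE, limma adjusted p = 0.162) and CREBBP signal 31, 18.5, 17.5 and 40.2 against 52.1, 61.8 and 76.4 (log2 difference -1.28 ± 0.34 SE, limma adjusted p = 0.17). In each of these 3 the groups do not overlap. KMT2B signal was 6.72, 6.01, 3.77 and 12.1 against 13.6, 20.7 and 23.7. KMT2D signal was 29.1, 9.83, 12.8 and 38.3 against 43.9, 59.7 and 99.7, and SETD1A signal 5.6, 3.49, 2.65 and 6.81 against 8.1, 12.8 and 18.3. SUZ12 had a signal of 45.9, 40.6, 34.6 and 71.2 in FLI and 92.9, 80.8 and 101 in control libraries. These 7 members, 17.5% of 40, were lower in every FLI library than in every control, beside 5.86% of all genes, and HDAC1 was higher (885, 837, 944 and 639.9 against 589, 523 and 570.5), beside 6.93%. These shares are on signal not adjusted for the length index, whose medians were -0.687 in FLI and 0.263 in control blastocysts. The 7 members have 4595 to 17858 exon bases and HDAC1 has 2399, against a median of 2428 over the 14225 genes. The part of length in these shares was not tested.

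**Figure D5:**
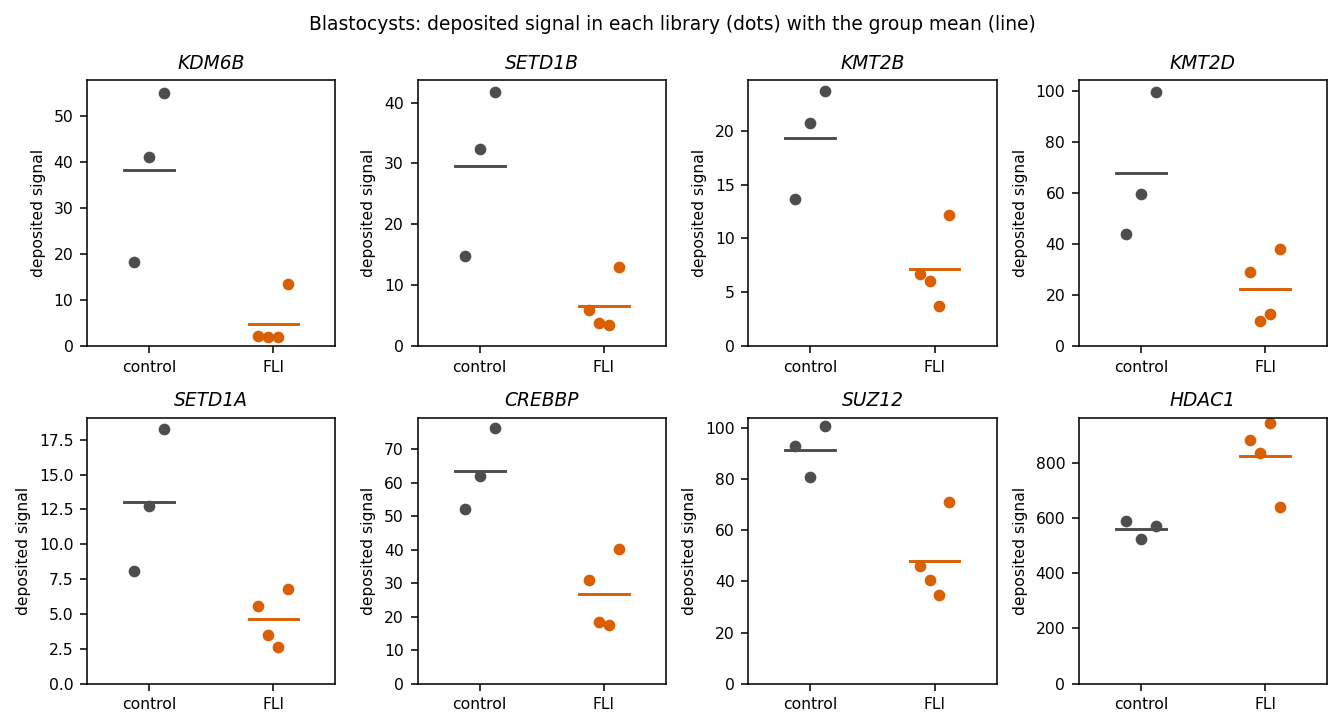
Deposited signal of 8 members in the 3 deep control and 4 FLI blastocyst libraries, with a line at the group mean and each axis starting at 0. For KDM6B, SETD1B, KMT2B, KMT2D, SETD1A, CREBBP and SUZ12 all FLI dots lie below all control dots, with FLI replicate 8 the highest of its group, and for HDAC1 all lie above.

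Other tests crossed the threshold for 6 of these members. The authors' table of this stage also lists shallow control replicate 6. Whether their test used it is not given in the sources used here. DESeq2 called KMT2B, KMT2D, SETD1A, SETD1B, KDM6B and CREBBP lower (adjusted p of 0.00347 for KDM6B and 0.0318 for CREBBP), beside 3.07% of all genes, and 0 members higher, beside 0.576%. The authors' deposited table has an FDR under 0.05 for the same 6, with KDM6B at 3.89, FDR 3.17e-09 and SETD1B at 2.44, FDR 0.0001 in log2 of control minus FLI, beside 3.33% of its genes lower with FLI and 1.22% higher. Without FLI replicate 8, limma called KMT2B, SETD1B, SUZ12, KDM6B and CREBBP lower, beside 1.79% of genes, and 0 members higher, beside 1.18%. Without control replicate 5 it called SETD1B and KDM6B lower, beside 1.36% of genes, and 0 members higher, beside 0%. With the length trend removed the differences of SETD1B, CREBBP, KMT2B, KMT2D, SETD1A and SUZ12 were -1.68, -0.68, -0.80, -0.86, -0.66 and -0.68, and with the index as a covariate -1.79, -1.09, -1.27, -1.26, -1.06 and -0.97. Summed CPM of the 5 trophectoderm genes was 32481 to 55286 in FLI and 28039 to 29899 in control blastocysts. That of 6 hypoblast genes was 1559 to 3513 in FLI and 2458 to 4166 in control, and that of 3 epiblast genes 1486 to 3249 and 1235 to 1494. The part of these cell types in the differences was not tested.

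Whether FLI altered the stage changes was tested directly as an interaction. No member and none of 13388 genes was called at any of the 3 steps (0%), and edgeR's quasi-likelihood test called none (0%). An unadjusted p under 0.05 was found for 0, 3 and 17 members and for 86, 881 and 2922 genes, and DESeq2 called KDM6B alone, with a lower change in FLI embryos at the last step, beside 1.56% of genes lower and 0.89% higher. From morula to blastocyst the 17 members all had a lower change in FLI embryos, led by KDM6A with a difference of -1.78 ± 0.60 SE (limma adjusted p = 0.171), KDM2B with -2.73 ± 0.94 and KDM6B with -4.04 ± 1.42. With the 3 libraries of the earlier stages that stand apart left out, a choice made after the data were seen, 12 members were called with a lower change in FLI embryos (30%, beside 7.07% of all genes) and 0 with a higher one (beside 11%). They were KMT2D, SETD1A, SETD1B, EHMT2, KDM2B, KDM3B, KDM6A, KDM6B, KDM7A, CREBBP, KAT2A and KAT2B. The libraries left out take no part in this step. They act on its test only through the joint scaling, the filter and the estimate of the spread that all groups share. Without morula FLI replicate 7, 9 members were called lower, beside 5.5% of genes, and 0 higher, beside 1.79%: KMT2D, SETD1A, SETD1B, SETD2, KDM2B, KDM3B, KDM6A, KDM6B and KAT2B. Without morula control replicate 7, KDM2B and KDM3B were called lower, beside 3.91% of genes, and 0 members higher, beside 1.7%. The index of the arms moved in opposite directions over this step, as given above. With the length trend removed the interaction had 11 members with an unadjusted p under 0.05 and a median of -0.43, in place of 17 and -1.15. With the index as a covariate it had 1 member and a median of -0.16, beside -0.09 for all genes, with 13 of 40 positive in place of 7.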

How the data were processed

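RNA of pools of 15 embryos was sequenced in 32 libraries, grouped by the stage and treatment in the labels, and 1 table per stage was deposited. Per the submitters' processing notes, FastQC, HISAT2, the build ARS-UCD1.2, featureCounts and edgeR were used. For versions and the strand setting, nothing is given in the sources used here. The deposited values are a signal, reads divided by a scaled library size, which the authors made before deposit. Every value was a whole multiple of the smallest positive value of its column within 0.001 (100%), which gave back whole reads and depths. Intervals from depth would cover counting error only. Per the file headers, each table further lists log2 fold changes, a likelihood ratio (a score) and p-values with FDR from the authors' own test. Columns that belong to no sample of the series numbered 0.

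The members and lists were chosen with earlier results of these data known. FLI and control were compared with limma 3.58.1 (trend and robust options, R 4.3.3) on log2(signal + 1), for genes with a mean of at least 1 per stage, without the 2 shallow libraries. Stage changes used reads of the 14225 genes in all 4 tables, joint TMM (edgeR 4.0.16), log2(CPM + 1) and one limma fit over 8 groups. Folds on these scales understate changes of low genes. Benjamini-Hochberg adjustment ran over all genes tested, at 0.05. The fits were tested on simulated counts with the same dispersion for every gene, no length trend and no libraries that stand apart. That test therefore does not cover these features of the data. The length trend was a lowess of log2 value on log10 exon length per library (span 0.3). Alternatives were edgeR's quasi-likelihood test, DESeq2 1.42.0, a pseudocount of 0.25, no filter, other scalings, single arms, the shallow libraries, single libraries left out and the replicate block. Values per library are given for called members with the largest control changes in each class (up to 3, or up to 2 for acetylases and deacetylases), the 3 highest and lowest by mean CPM, the 3 smallest p per stage for FLI, up to 4 partners per stage change and the 5 paralog pairs with the largest change per stage change. Others named with values were chosen after their values were seen.

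Same-numbered FLI and control libraries deviated together at the 4-6 cell stage, with correlations of 0.924, 0.815, 0.473 and 0.689 for numbers 6 to 9. Each library was taken against the mean of its arm. Replicate 6 stood apart in both arms, which moves the other replicates of both arms the same way. These correlations therefore cannot show whether the numbers pair the samples, and the labels do not say what a number marks. Same-numbered libraries had correlations of 0.0628 to 0.285 at 9-16 cells and of -0.736 to 0.355 in blastocysts. Deep morula libraries of both arms share only number 7. Sequences of the members were not used here.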

Additional observations from a re-analysis of the deposited data

Results flagged for a closer look

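Of 168 groups of 4 libraries tested over 28 named members, 21 (12.5%) held a library far from the other 3, by Dixon's criterion for 4 samples at the 95% level, where chance gives about 1 in 20. Members measured in the same library are not independent. FLI replicate 6 of the 4-6 cell stage, which has the low length index, was lowest in SETDB1 (52.9 CPM), CREBBP (102 CPM), KMT2C (203 CPM), EP300 (50.6 CPM), KMT2D (7.98 CPM) and SETD1B (15.5 CPM). It was highest in KDM5B (11.6 CPM) and SUV39H2 (149.99 CPM). Control replicate 6 of that stage was lowest in KDM1A (83.2 CPM) and KDM3B (4.28 CPM) and highest in EED (14.2 CPM). At 9-16 cells control replicate 11, also with a low index, was lowest in CREBBP (231 CPM), KMT2C (242 CPM) and KMT2D (19.7 CPM).

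Other single libraries stood apart, of which 9-16 cell FLI replicate 11, morula FLI replicate 7 and blastocyst FLI replicate 6 have the lowest index of their groups. FLI replicate 11 of the 9-16 cell stage was lowest in SETD2 (101 CPM) and HDAC3 (16.4 CPM), and FLI replicate 13 highest in SUV39H2 (59.1 CPM). Morula FLI replicate 7 was highest in EZH2 (195 CPM). In FLI blastocysts replicate 5 was highest in KDM5B (268 CPM), replicate 6 lowest in KDM1B (4.64 CPM) and replicate 8 highest in KDM6B (13.4 CPM, against 1.94 to 2.16 in the other 3).

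The 2 shallow libraries hold reads of the members that no comparison used. Morula control replicate 4 had 163 reads of 33 members among 83409, and blastocyst control replicate 6 had 17 reads of 8 members among 2995.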

How the results depend on the processing

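Counts of members called moved with the shallow libraries, the length fits and the test, and the causes of these moves were not tested. Most counts in this section stand without the share of all genes called in the same fit. From them, a shift of the members cannot be told apart from a shift over all genes. With both shallow libraries in the fit, 2 rose and 0 fell from 4-6 to 9-16 cells in either arm, 0 rose to the morula in controls, 3 rose and 6 fell there in FLI embryos, and 0 rose and 1 fell to the blastocyst in either arm. KDM3A then had -0.26 from morula to blastocyst in controls, and with the shallow library KDM7A had -0.18 and SIRT1 0.15 for FLI against control in morulae, all 3 with the sign turned. With the length index as a covariate, controls had 11 higher and 10 lower, then 22 and 5, then 13 lower from morula to blastocyst, while FLI embryos had 14 and 10, then 5 lower, then 4 higher. With the length trend removed, 8 and 6 control members fell at the last 2 steps and 4 FLI members rose at the last. Library totals gave 3 lower, 5 higher and 0 lower over the 3 control steps and 1 higher in FLI blastocysts. Over all genes tested the matching counts were 1601, 3602, 1405 and 1841, in place of 1651, 5227, 2038 and 2512 in the reported fit. DESeq2 gave 10 higher at the first control step, 4 higher in FLI blastocysts (also 4 by edgeR's quasi-likelihood test), 1 and 6 for FLI against control in morulae and blastocysts, and 1 for the interaction. Leaving out the 3 libraries that stand apart gave 9 lower at the first FLI step, 4 higher at the last and 12 for the last interaction. Paralog calls were 0, 0 and 0 in controls alone. With the index adjusted, calls moved at all 3 steps, with 7 at the last. Among the pairs that moved, EZH1 over EZH2 lost its call at the second step. It went from -0.90 (exact permutation adjusted p = 0.007) to 0.06 (0.822). EHMT1 over EHMT2 gained a call there, from -0.32 (0.353) to -1.47 (0.00153).

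With single libraries left out, FLI against control gave 0 to 8 members in morulae and 0 to 5 in blastocysts, and 0 at the 2 earlier stages. Control counts ran from 3 to 6 lower at the first step and from 1 to 4 higher at the last, FLI counts from 2 to 4 higher and 12 to 26 lower at the last, and the last interaction from 0 to 9. SIRT1 at the 4-6 cell stage ran from -0.29 to 0.027, the latter without 4-6 cell control replicate 6. Of the 35 values of single members, 557 recomputed values had the same side of the threshold and direction, 34 lost the call, 12 gained one and 4 turned sign. The replicate block called 0 genes at the 4-6 cell, 9-16 cell and blastocyst stages and changed no call, and no block could be fitted for morulae. The 2 shallow libraries hold too few reads to measure the members.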
